A study of Mus musculus with 4 samples.

Results

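The Hox genes of the mouse were examined in embryonic fibroblasts that had lost Trp53, Zfp871 or both. A gene was a member if it was protein-coding and its symbol was Hoxa, Hoxb, Hoxc or Hoxd followed by a number, which gave 39 of the 54532 genes in the count table. The Hoxa cluster held 11 members (GRCm38, chromosome 6, 52155590 to 52260880), the Hoxb cluster 10 (chromosome 11, 96194316 to 96368256), the Hoxc cluster 9 (chromosome 15, 102921103 to 103036852) and the Hoxd cluster 9 (chromosome 2, 74668310 to 74765142).

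RNA was sequenced from 1 library for each of 4 genotypes: Trp53-/-; Zfp871-/- (called double null here), Trp53-/-, Zfp871-/- and wild type (WT). All were primary mouse embryonic fibroblasts (MEFs) of strain C57BL/6, from embryos at 12.5 to 13.5 days post-coitum, harvested at passage 4 while dividing, in DMEM with fetal bovine serum. Per the series description, double heterozygotes were crossed with each other for double null, Trp53-/- and WT cells, and Zfp871 heterozygotes with each other for Zfp871-/- and WT cells. The sources used here do not name the cross behind the sequenced WT cells, the body regions that were dissociated, any pooling of embryos or how the alleles were built.

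Hox genes encode homeodomain transcription factors that give cells their position along the head-to-tail axis. They sit in 4 clusters, and their order on the chromosome matches the order in which they are used, from low paralog numbers in the hindbrain and neck, through middle numbers in the trunk, to high numbers in the tail, the distal limb and the genital bud. Fibroblasts are known to keep in culture the Hox pattern of the place they came from.

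The libraries held 22324599 counts (double null), 21004078 (Trp53-/-), 19974054 (Zfp871-/-) and 19303167 (WT). Zfp871 RNA had 307 and 327 counts in the double null and Zfp871-/- libraries, against 784 and 660 in Trp53-/- and WT. Trp53 had 1382 and 1233 counts in the double null and Trp53-/- libraries, against 2413 and 2383 in Zfp871-/- and WT. Each gene was thus lower where the label calls it null. The 6 fibroblast markers were abundant in every library, with a summed normalized CPM (counts scaled to library size) of 21550 in double null, 25130 in Trp53-/-, 33910 in Zfp871-/- and 31600 in WT cells. With 1 library per genotype a pairwise difference has no replicate check and compares libraries, not conditions. Log2 ratios of normalized CPM are given with exact 95% intervals that cover counting error only. In bulk RNA, fewer cells expressing a gene and less RNA per cell cannot be told apart.

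Markers of other cell types differed between the same libraries. Chondrocyte markers had a summed normalized CPM of 200 in double null, 138.3 in Trp53-/- and 519.4 in Zfp871-/- cells, against 1323 in WT cells over 9 genes, of which 5 passed the filter on low counts (at least 1 CPM in at least 2 libraries). Col2a1, the main cartilage collagen, had 50, 25 and 558 counts in them, against 11633 in WT cells, and Col9a1 had 0, 0 and 3, against 74 in WT cells. The 5 that passed had median log2 ratios to WT of -1.83 in double null, -2.44 in Trp53-/- and -0.33 in Zfp871-/- cells. At least 2-fold below WT were 3, 3 and 2 of them, where 9.23%, 8.88% and 3.98% of all genes tested were. In double null 1 was at least 2-fold above WT, where 8.79% of all genes were. The 10 macrophage markers summed to 495 in double null, 587.1 in Trp53-/- and 43.13 in Zfp871-/- cells, against 34.64 in WT cells. With Trp53 loss 10 of 10 rose in the edgeR quasi-likelihood test, where 5.01% of all genes tested did. Epithelial markers summed to 2.28, 7.183 and 6.684, against 1.96 in WT cells, and mesothelial markers to 16.09, 17.66 and 31.61, against 11.44 in WT cells. Skeletal muscle markers summed to 10.67, 5.627 and 18.67, against 14.88 in WT cells, and neural crest markers to 1.936, 2.471 and 8.381, against 5.138 in WT cells. Endothelial markers (12.18 to 24.56), neural markers (139.2 to 182.3) and germ cell markers (0.6884 to 2.069) are given as the range of their sum over the 4 libraries. Col3a1 (fibroblast), Col11a1 (chondrocyte), Des (skeletal muscle) and Sox10 (neural crest) fell with Trp53 loss in that edgeR test. Each was 1 gene of the 6, 5, 2 and 2 of its list that passed the filter, where 4.31% of all genes fell. The part of cell composition in the Hox differences was not tested.

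Total Hox RNA differed less between libraries than its make-up. Summed over the 39 members, FPKM (counts per gene length and per library factor) came to 130.55 in double null, 152.72 in Trp53-/-, 123.34 in Zfp871-/- and 120.06 in WT cells. The Hoxd cluster supplied 9.1% of this sum in double null, 8.0% in Trp53-/- and 11.6% in Zfp871-/- cells, against 48.3% in WT cells. Hoxd13 alone made up 33.6% of the WT sum. The Hoxb cluster supplied 39.7%, 39.3% and 37.2% in double null, Trp53-/- and Zfp871-/- cells, against 15.3% in WT cells. For the Hoxc cluster the shares were 37.4%, 39.5% and 39.9% in the same 3 mutant libraries, against 14.5% in WT cells. The Hoxa cluster gave 13.9%, 13.2% and 11.3% in them, against 21.9% in WT cells. Grouped by paralog number, genes 10 to 13 held 15.0%, 13% and 13.2% of Hox FPKM in double null, Trp53-/- and Zfp871-/- cells, against 60.5% in WT cells. Genes 5 to 9 held 73.8%, 76.5% and 76.4% in the mutant libraries, against 34.0% in WT cells.

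**Figure D1:**
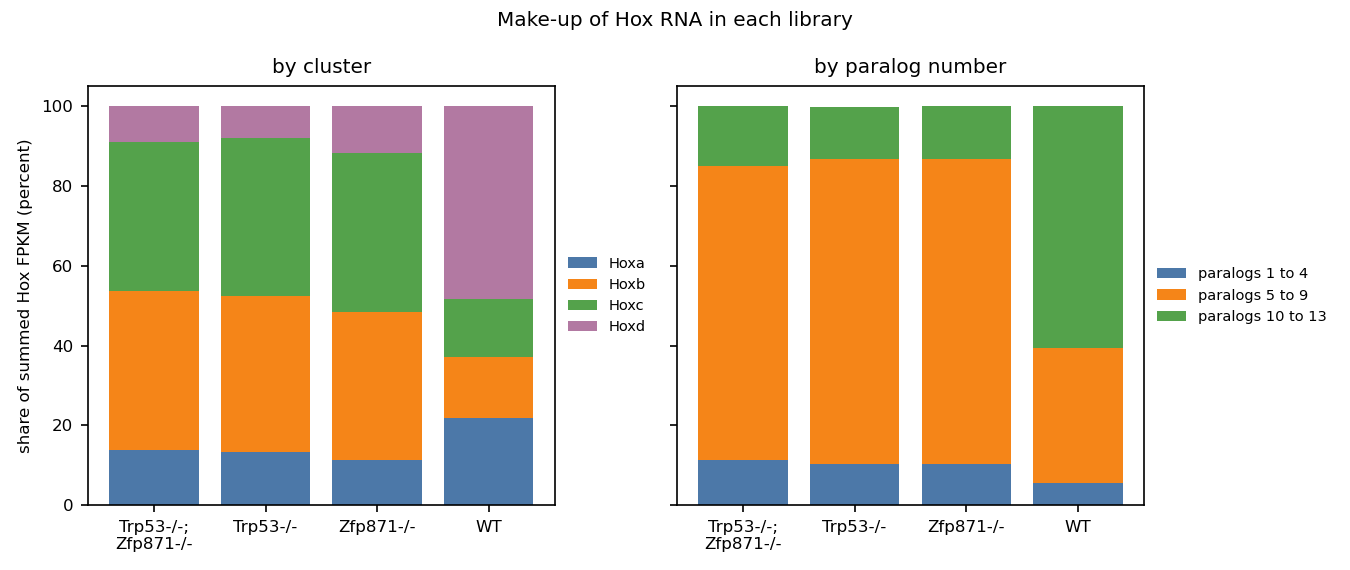
Share of summed Hox FPKM (vertical axis, percent) in each library, stacked by cluster on the left and by paralog number on the right. The Hoxd segment reaches 48.3% in WT and stays at or below 11.6% in the 3 mutant libraries, and paralogs 10 to 13 reach 60.5% in WT.

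The order of levels within a library differed in the same way. Hoxb9, Hoxc6 and Hoxc8, which pattern the thoracic region, were the 3 highest members by FPKM in every mutant library. Hoxb9 had 22.5 FPKM in double null, 27.0 in Trp53-/- and 20.1 in Zfp871-/- cells, against 8.76 in WT cells, where it ranked second. In WT cells Hoxd13 led with 40.4 FPKM, and Hoxa10 (6.28), Hoxa11 (5.85) and Hoxc6 (5.27) followed Hoxb9. A level of at least 1 FPKM was reached by 26 members in double null, 24 in Trp53-/-, 22 in Zfp871-/- and 25 in WT cells. Over the 37 members with any count, the Pearson correlation of log2(FPKM + 0.1) was 0.98 between double null and Trp53-/-, 0.87 between double null and Zfp871-/- and 0.89 between Trp53-/- and Zfp871-/-. It was 0.28 between double null and WT, 0.32 between Trp53-/- and WT and 0.62 between Zfp871-/- and WT. These values describe levels across genes, which are not independent, and gene length and abundance are common to both axes.

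**Figure D2:**
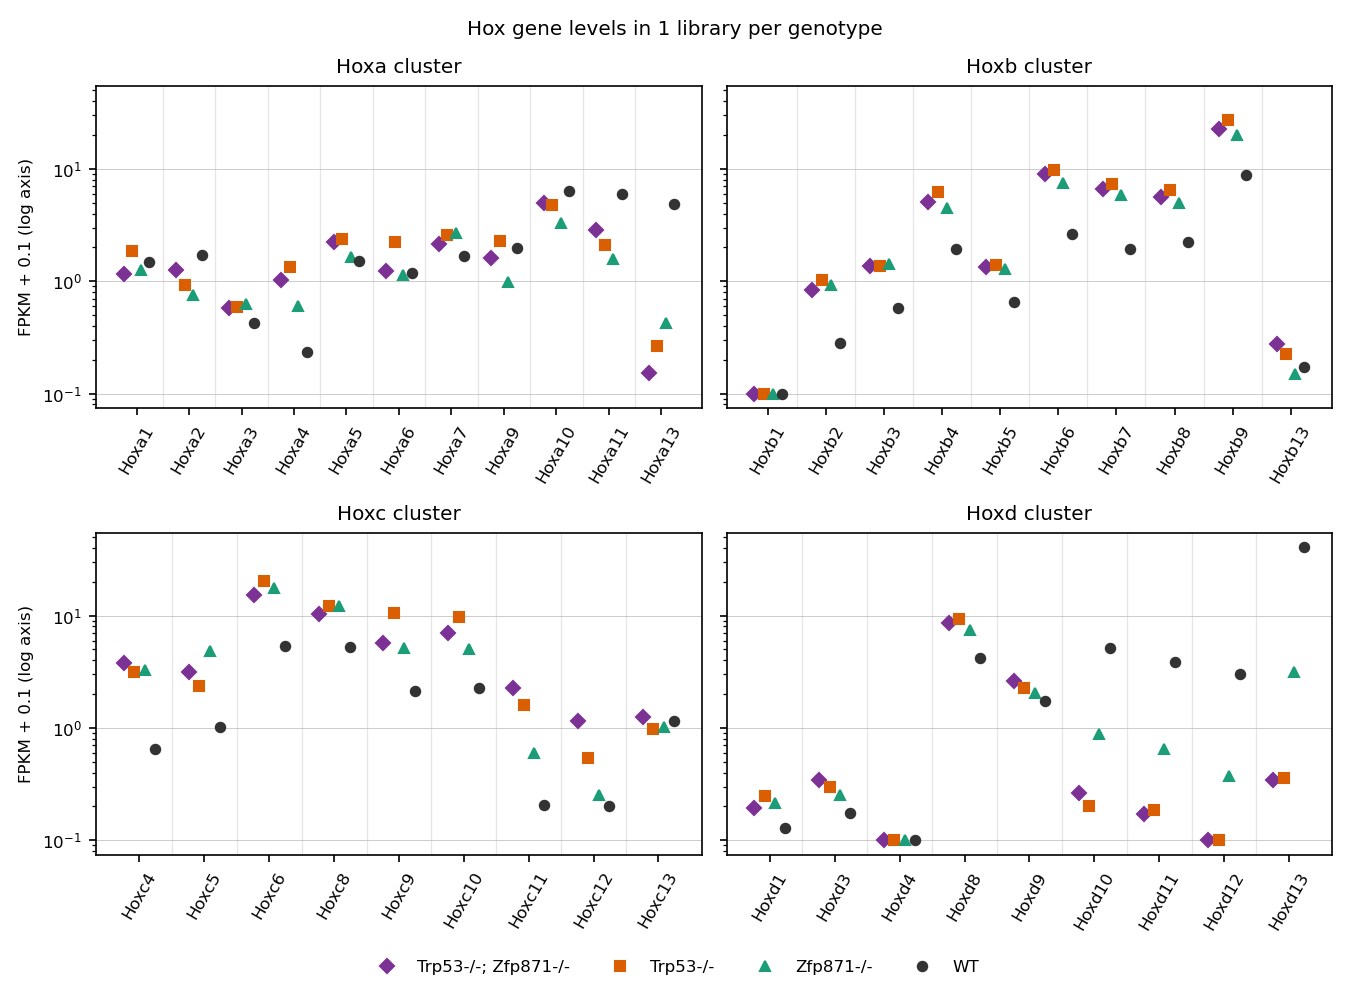
FPKM + 0.1 (log axis) of the 39 members in 1 library per genotype, in order of paralog number within each cluster. In the Hoxd panel the WT points of Hoxd10 to Hoxd13 lie far above the others, up to 40.4 FPKM for Hoxd13, while in the Hoxb and Hoxc panels the WT points of most members lie lowest.

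**Figure D3:**
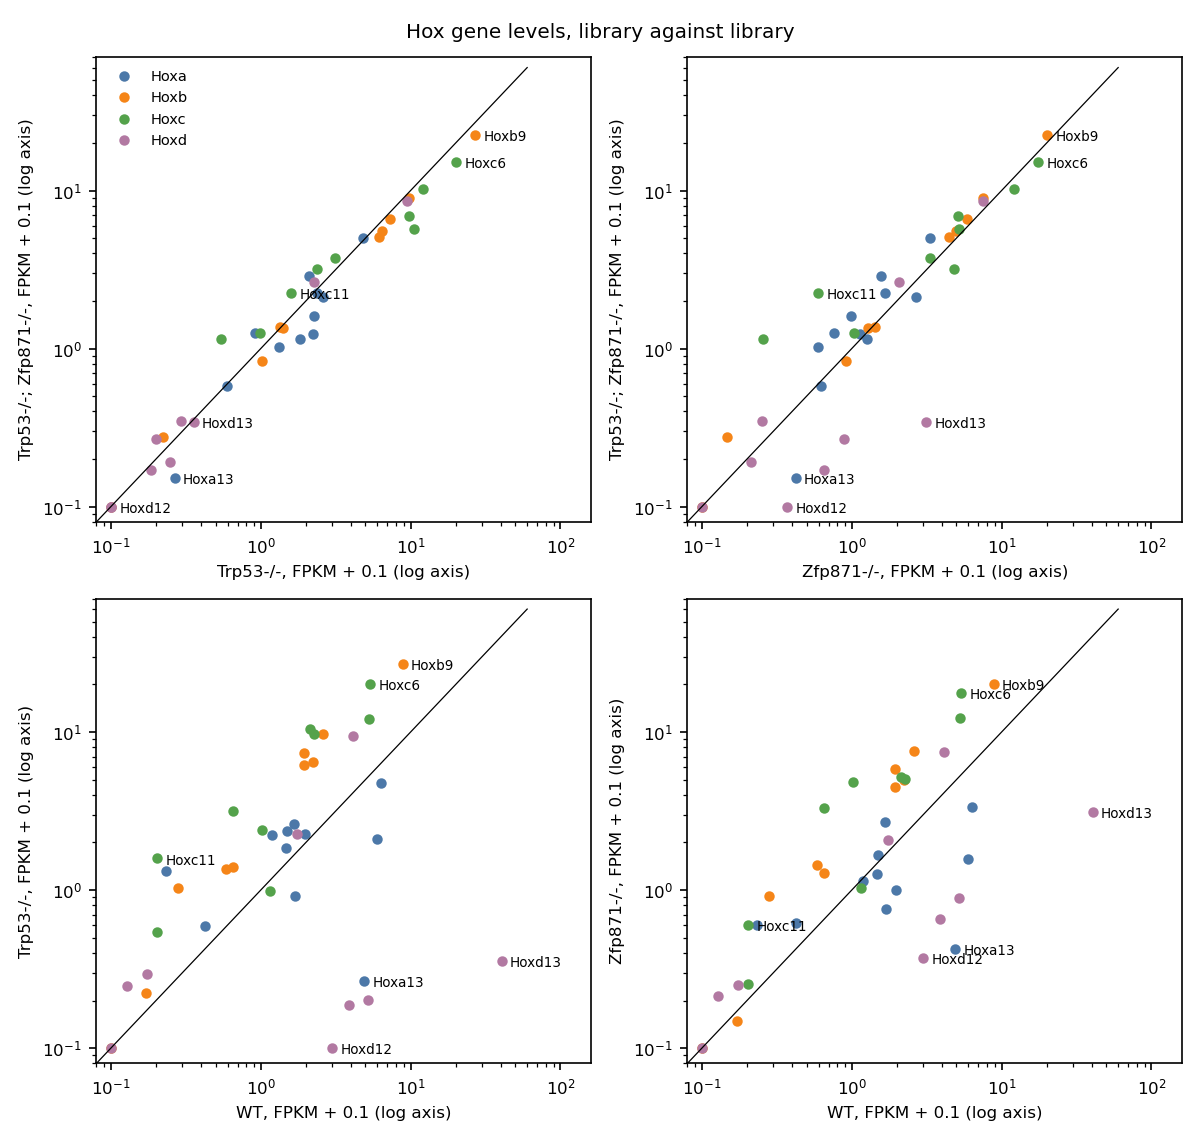
FPKM + 0.1 of each member in one library against another (both axes logarithmic, line of equal level, colour for cluster). Double null and Trp53-/- lie close to the line, while against WT most Hoxb and Hoxc members lie above it and Hoxd13, Hoxd12 and Hoxa13 far below it.

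Promoters of 4 members are shown because these genes stand at both ends of the pattern: Hoxd13 and Hoxa13 were highest in WT, and Hoxb8 and Hoxc4 lowest in WT. Each is a 300-base RefSeq promoter window (GRCm38.p6), written along the strand of the gene. Capitals mark matches on either strand to any of 6 motifs. The TATA box was searched as TATAAA and the box of NF-Y binding as CCAAT. The MEIS motif was TGACAG, the joint PBX-HOX motif TGATNNAT, and the nuclear receptor half-site AGGTCA. The posterior HOX motif CCAATAAA contains the letters of the NF-Y one. The windows lie at chr2:74667975-74668274 (Hoxd13, plus strand), chr6:52260831-52261130 (Hoxa13, minus strand), chr11:96281655-96281954 (Hoxb8, plus strand) and chr15:103034145-103034444 (Hoxc4, plus strand). The Hoxc4 window lies inside the gene as annotated here (103018934 to 103036852) and not at its start. The Hoxd13 window ends before the annotated start at 74668310.
Hoxd13: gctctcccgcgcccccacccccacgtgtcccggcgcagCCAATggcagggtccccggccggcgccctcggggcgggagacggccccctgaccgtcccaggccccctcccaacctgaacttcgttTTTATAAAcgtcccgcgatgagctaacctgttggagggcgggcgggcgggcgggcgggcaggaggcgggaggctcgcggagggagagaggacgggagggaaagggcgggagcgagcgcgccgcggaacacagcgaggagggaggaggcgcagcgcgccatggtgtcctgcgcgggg
Hoxa13: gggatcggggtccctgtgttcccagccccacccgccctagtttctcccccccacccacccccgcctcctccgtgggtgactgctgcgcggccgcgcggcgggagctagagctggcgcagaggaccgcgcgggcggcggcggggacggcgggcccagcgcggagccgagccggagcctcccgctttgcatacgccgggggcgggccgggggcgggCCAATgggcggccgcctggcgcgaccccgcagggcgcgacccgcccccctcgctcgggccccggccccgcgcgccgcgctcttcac
Hoxb8: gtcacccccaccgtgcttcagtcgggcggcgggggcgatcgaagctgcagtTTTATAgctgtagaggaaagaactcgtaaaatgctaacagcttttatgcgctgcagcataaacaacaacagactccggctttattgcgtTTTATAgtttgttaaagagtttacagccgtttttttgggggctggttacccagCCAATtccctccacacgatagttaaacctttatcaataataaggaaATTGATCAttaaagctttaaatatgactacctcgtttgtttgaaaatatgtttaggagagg
Hoxc4: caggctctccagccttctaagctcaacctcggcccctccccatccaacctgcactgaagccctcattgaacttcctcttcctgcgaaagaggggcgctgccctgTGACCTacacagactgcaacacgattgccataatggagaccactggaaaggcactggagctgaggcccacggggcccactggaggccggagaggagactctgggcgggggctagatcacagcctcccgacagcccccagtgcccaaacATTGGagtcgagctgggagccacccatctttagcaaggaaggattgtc

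The Hoxd13 and Hoxa13 windows are rich in GC (74.3% and 81.0%) and in CpG (37 and 45), against 42.3% and 60.3% GC with 13 and 9 CpG for Hoxb8 and Hoxc4. The window of Hoxd12, also highest in WT, has 55.0% GC and 13 CpG, so the contrast holds for the shown windows and not for every member highest in WT. Hoxd13 and Hoxb8 hold a TATA box and Hoxb8 also a PBX-HOX match. A nuclear receptor half-site stands in the Hoxc4 window. RefSeq windows were given for 22 of the 39 members, 24 windows in all. Of these, 62.5% held the NF-Y box, 29.2% the nuclear receptor half-site, 16.7% the TATA box, 16.7% the PBX-HOX match, 8.33% the MEIS match and 4.17% the posterior HOX match. Over all 32851 promoter windows the shares were 37.4%, 16.3%, 13.6%, 8.85%, 19.2% and 1.12% for the same motifs in the same order. A match describes the letters only.

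Genes of the distal limb were the members most unequal between WT and the mutant libraries. Hoxd13 (chromosome 2, 74668310 to 74671599), which with Hoxa13 builds the hand and foot plate and the genital bud, had 14 counts in double null, 14 in Trp53-/- and 142 in Zfp871-/- cells, against 1904 in WT cells. The level was thus low in both Trp53-null libraries and intermediate in Zfp871-/-. Relative to WT it stood at 0.597% in double null, 0.635% in Trp53-/- and 7.47% in Zfp871-/- cells. These percentages carry no prior count, while the log2 ratios use a prior count of 2, so the values differ slightly. The log2 ratio to WT was -7.17 (-8.26 to -6.64) in double null, -7.10 (-8.17 to -6.55) in Trp53-/- and -3.73 (-4.00 to -3.50) in Zfp871-/- cells. These 3 pairs share the WT library. Between double null and Trp53-/- the ratio was -0.08 (-1.27 to 1.09), and between double null and Zfp871-/- it was -3.45 (-4.55 to -2.85).

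The next genes along the Hoxd cluster had the same order of libraries. Hoxd12 had 0 counts in double null, 0 in Trp53-/- and 13 in Zfp871-/- cells, against 140 in WT cells. With a floor of 3 counts per library it was at least 57.5-fold below WT in double null, and in Trp53-/- it was at least 54-fold below WT. It was also at least 5.34-fold lower in double null than in Zfp871-/-. Hoxd11, which shapes the forearm and lower leg with Hoxa11, had 7, 8 and 44 counts in double null, Trp53-/- and Zfp871-/- cells, against 303 in WT cells. Both Trp53-null libraries were low and WT was alone at the top. Its log2 ratios to WT were -5.34 (-7.06 to -4.67), -5.12 (-6.68 to -4.46) and -2.73 (-3.27 to -2.32) in double null, Trp53-/- and Zfp871-/- cells. Hoxd10 had 7, 4 and 27 counts in them, against 175 in WT cells, where the ratio of Trp53-/- to WT was -5.07 (-7.55 to -4.28). Gene Gm28309 covers 10.8% of the exon bases of Hoxd11 and 5.7% of those of Hoxd10, so reads there are uncertain. The change of direction lay between Hoxd10 and Hoxd9: Hoxd9 had 126, 102 and 79 counts in double null, Trp53-/- and Zfp871-/- cells, against 67 in WT cells, and Hoxd8 had 542, 560 and 382, against 211 in WT cells. The interval of Hoxd9 over WT excluded 0 in double null, at 0.60 (0.17 to 1.06), and included it in Trp53-/- and Zfp871-/-.

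The posterior end of the Hoxa cluster shared part of this pattern. Hoxa13 had 3 counts in double null, 9 in Trp53-/- and 15 in Zfp871-/- cells, against 226 in WT cells. Without a prior count this is 1.08%, 3.44% and 6.65% of the WT level, and the log2 ratio of Zfp871-/- to WT was -3.76 (-4.77 to -3.16). Hoxa11 had 147, 100 and 63 counts in double null, Trp53-/- and Zfp871-/- cells, against 254 in WT cells, so here the lowest library was Zfp871-/-. Its log2 ratios to WT were -1.08 (-1.39 to -0.79), -1.54 (-1.91 to -1.22) and -1.98 (-2.43 to -1.61) in the same 3 libraries. The antisense gene Hoxa11os covers 35.0% of Hoxa11 exon bases and no strand setting is stated, so the reads of the pair cannot be told apart. Hoxa10, with 371, 336 and 199 counts in double null, Trp53-/- and Zfp871-/- cells, against 390 in WT cells, differed less, with log2 ratios to WT of -0.37 (-0.58 to -0.16), -0.42 (-0.64 to -0.21) and -0.96 (-1.22 to -0.72).

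In each mutant library, paralog groups 2, 10 and 11 held members on both sides of WT. Hoxc11, a gene of the lower trunk and hindlimb, had 101 counts in double null, 66 in Trp53-/- and 19 in Zfp871-/- cells, against 4 in WT cells. Its log2 ratio to WT was 3.85 (2.96 to 6.26) in double null, 3.34 (2.41 to 5.75) in Trp53-/- and 1.84 (0.66 to 4.26) in Zfp871-/- cells. In double null it was also above Zfp871-/-, by 2.01 (1.39 to 2.90). Within paralog group 11, Hoxd11 and Hoxc11 were therefore 8.46 apart on the log2 scale in Trp53-/- against WT. Hoxc13, which acts in hair and nail, had 66, 48 and 43 counts in double null, Trp53-/- and Zfp871-/- cells, against 49 in WT cells, and its intervals included 0 in each pair. Across members that passed the filter, neighbours within a cluster had closer ratios than paralogs did. The median absolute difference of the log2 ratio to WT was 0.53 for 27 adjacent pairs and 1.18 for 28 paralog pairs in double null. In Trp53-/- these medians were 0.71 and 1.02, and in Zfp871-/- 0.59 and 1.24. Neighbours here are consecutive members that passed, so Hoxd11 and Hoxd13 form a pair, as do Hoxc11 and Hoxc13, and Hoxa13 is left out. Members recur in several pairs, so these medians are descriptions.

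**Figure D4:**
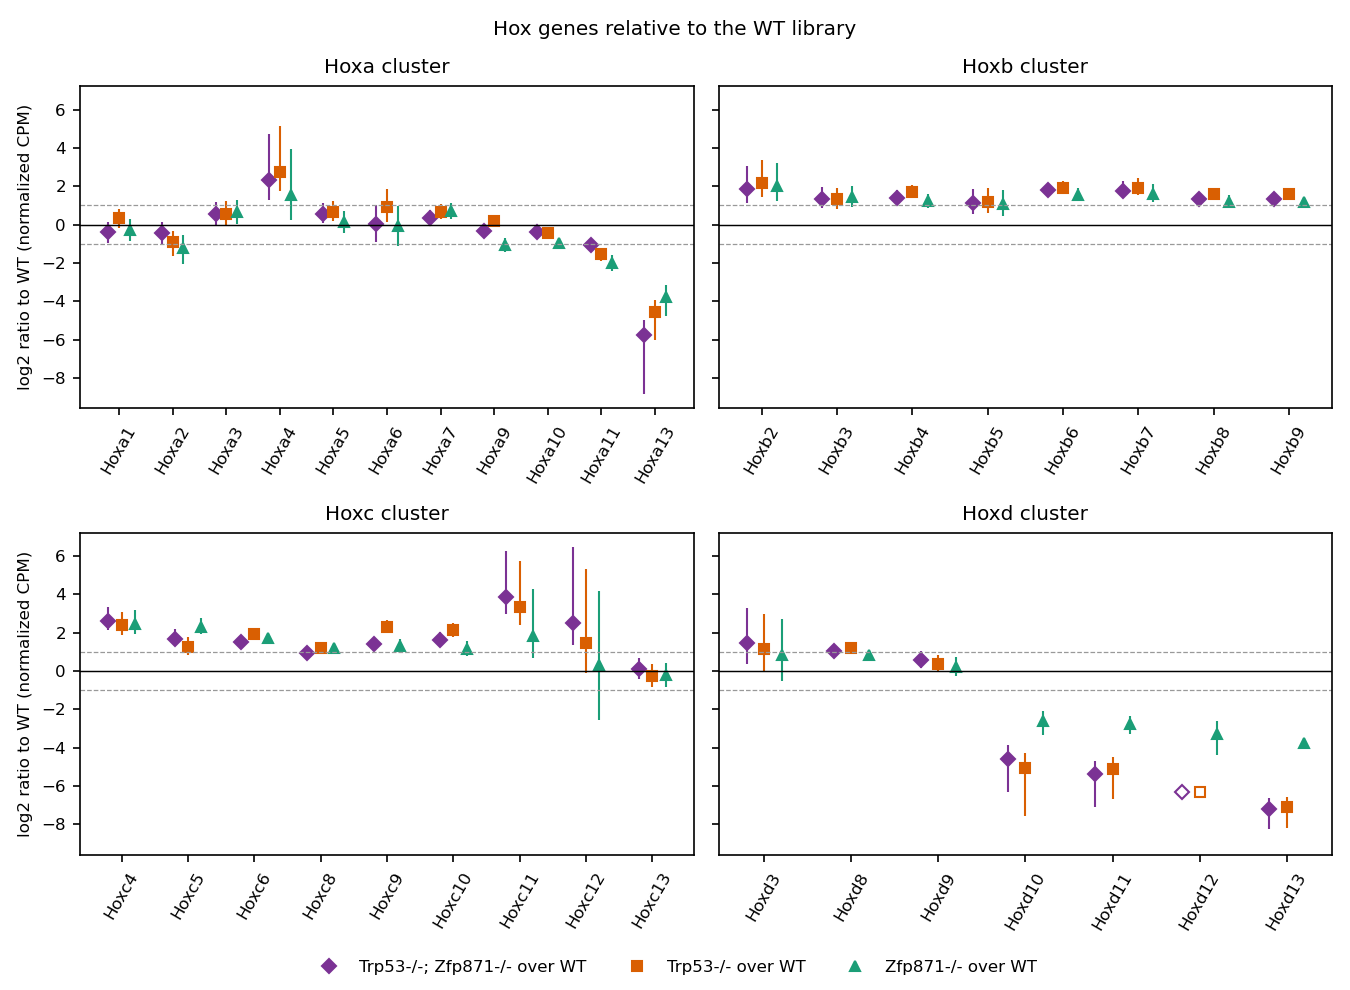
Log2 ratio of normalized CPM to WT (vertical axis) for members with at least 20 counts in a library, with exact 95% counting intervals as vertical lines, solid line at 0 and dashed lines at 2-fold; open symbols have 0 counts in the mutant library. All 3 mutant libraries share the WT library, Hoxb members lie between 1.05 and 2.19, and Hoxd13 reaches -7.17.

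The Hoxb cluster lay on the other side. All 8 members that passed the filter on low counts (Hoxb2 to Hoxb9) were at least 2-fold higher in each mutant library than in WT, where 8.79% (double null), 8.9% (Trp53-/-) and 3.52% (Zfp871-/-) of all genes tested were. The cluster had a median log2 ratio of 1.38 in double null, 1.66 in Trp53-/- and 1.32 in Zfp871-/- cells. Hoxb9 (chromosome 11, 96271457 to 96276595) had 1347, 1527 and 973 counts in double null, Trp53-/- and Zfp871-/- cells, against 428 in WT cells. The ratio to WT was 1.35 (1.20 to 1.51), 1.62 (1.47 to 1.78) and 1.18 (1.02 to 1.35) in them. Hoxb6 had 406, 416 and 276 counts in double null, Trp53-/- and Zfp871-/- cells, against 94 in WT cells, and Hoxb7 had 233, 245 and 168, against 54 in WT cells. WT was the lowest library for each of these genes. Hoxb2, a hindbrain gene, had 60, 71 and 54 counts in double null, Trp53-/- and Zfp871-/- cells, against 12 in WT cells, a ratio of 1.87 (1.11 to 3.05), 2.19 (1.46 to 3.37) and 2.02 (1.25 to 3.21). Hoxb2 passed the filter only through the mutant libraries, where it was high. The antisense gene Hoxb3os covers 27.3% of Hoxb2 and 52.9% of Hoxb3 exon bases. The Hoxb cluster lies 26.6 Mb from Trp53 on the same chromosome, and the part of linked sequence in the Hoxb difference was not tested.

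The Hoxc cluster had a like pattern, with median log2 ratios to WT of 1.56 in double null, 2.02 in Trp53-/- and 1.51 in Zfp871-/- cells over 8 members. Hoxc6, which marks the start of the thorax, had 845, 1059 and 795 counts in double null, Trp53-/- and Zfp871-/- cells, against 241 in WT cells. Its ratio to WT was 1.5 (1.30 to 1.72), 1.92 (1.72 to 2.13) and 1.72 (1.51 to 1.94) in them. Hoxc4 had 219, 172 and 155 counts in double null, Trp53-/- and Zfp871-/- cells, against 27 in WT cells, a ratio of 2.64 (2.14 to 3.35), 2.38 (1.87 to 3.10) and 2.45 (1.93 to 3.17). Hoxc9 had 318, 553 and 233 counts in the mutant libraries in that order, against 94 in WT cells, and of the members that passed the filter it was the most apart between the Trp53-null libraries, at -0.88 (-1.09 to -0.69) in double null against Trp53-/-.

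Anterior Hoxa genes were near their WT level or on either side of it. Hoxa2, which patterns the second pharyngeal arch, had 48, 32 and 22 counts in double null, Trp53-/- and Zfp871-/- cells, against 54 in WT cells. The ratio to WT was -0.45 (-1.06 to 0.12), -0.92 (-1.65 to -0.31) and -1.23 (-2.08 to -0.55), so the interval included 0 in double null. Hoxa4 had 34, 43 and 15 counts in double null, Trp53-/- and Zfp871-/- cells, against 4 in WT cells. Its ratio to WT was 2.34 (1.30 to 4.74), 2.74 (1.755 to 5.15) and 1.53 (0.26 to 3.96) in them. The Hoxa median, over the 10 members that passed and so with posterior ones, was -0.14 in double null, 0.45 in Trp53-/- and -0.16 in Zfp871-/- cells. Over Hoxa members with at least 50 counts in a library it was -0.37, 0.20 and -0.96 in the same libraries. The other members that did not pass the filter were listed at low counts. Hoxb1 and Hoxd4 were listed at 0 counts in every library. Other genes share 52.3% of Hoxd4 and 62.8% of Hoxd3 exon bases, so their counts are uncertain. Hoxd1, Hoxd3 and Hoxb13 had at most 24 counts, and Hoxc12 had 25 counts in double null, 10 in Trp53-/- and 3 in Zfp871-/- cells, against 2 in WT cells.

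Counted over the members, 31 of 39 passed the filter of 1 CPM in at least 2 libraries, which Hoxa13 and Hoxd12 failed because only WT was high, so the counts of lower members leave these genes out. Hoxd10, Hoxd11 and Hoxd13 passed only through Zfp871-/- and WT, the libraries where they were high, and Hoxa4, Hoxa6 and Hoxc11 only through the 2 Trp53-null libraries. Hoxb2 passed only through the 3 mutant libraries. Double null against WT had 16 of the 31 at least 2-fold higher, where 8.79% of all 13306 genes tested were, and 4 at least 2-fold lower (9.23% of all genes). Trp53-/- against WT had 17 higher (8.9% of all genes) and 4 lower (8.88%). Zfp871-/- against WT had 16 higher (3.52%) and 6 lower (3.98%). The median log2 ratio of the 31 members in these pairs was 1.06, 1.20 and 1.05 in double null, Trp53-/- and Zfp871-/- cells, beside medians near 0.0 over all genes. Between mutant libraries fewer members were at least 2-fold higher than in the pairs with WT. Double null against Trp53-/- had 0 higher (0.819%) and 0 lower (1.01%). Double null against Zfp871-/- had 1 higher (5.51%), Hoxc11, and 3 lower (6.33%), Hoxd10, Hoxd11 and Hoxd13. Trp53-/- against Zfp871-/- had 4 higher (5.94%) and 4 lower (6.4%). In that pair the counting interval lay above 0 in 16 of the 31 members, below 0 in 4 and included 0 in 11. Without the 16 members that share exon bases with another gene, 10 were higher in double null, 11 in Trp53-/- and 10 in Zfp871-/- than in WT, and 1, Hoxd13, was lower in each.

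WT stood apart in a large share of the members that passed the filter. It was at least 2-fold below each of the other libraries in 15 of the 31 members, where 2.06% of all genes were, and at least 2-fold above each of them in 4 (Hoxa11, Hoxd10, Hoxd11 and Hoxd13), where 2.53% of all genes were. The 15 were Hoxa4, the 8 Hoxb members, and Hoxc4, Hoxc5, Hoxc6, Hoxc9, Hoxc10 and Hoxc11. Of these 15, Hoxa4, Hoxb2 and Hoxc11 passed the filter only through mutant libraries, where they were high. Of the 4 above, Hoxd10, Hoxd11 and Hoxd13 passed only through Zfp871-/- and WT, where they were high. For these members the counts lend no support of their own. No member that passed stood at least 2-fold apart from each other library in double null (0.376% of all genes below and 0.0225% above), in Trp53-/- (0.579% and 0.233%) or in Zfp871-/- (0.504% and 0.338%). At shares this low, 0 of the 31 members sets no contrast with WT. Over all 39 members, double null stood below in Hoxa13 (3 counts, against 9 in Trp53-/-) and above in Hoxc12 (25, against 10 in Trp53-/-).

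An additive fit (Trp53 genotype plus Zfp871 genotype) was tested with edgeR's quasi-likelihood method, with 2 libraries for each state of a gene and 1 residual degree of freedom. With Trp53 loss 2 of the 31 members fell, where 4.31% of all genes did, and 0 rose, where 5.01% did. Hoxd13 fell by 5.88 on the log2 scale (SE 0.883, edgeR quasi-likelihood test, Benjamini-Hochberg adjusted p 0.0360). Hoxd11 fell by 4.38 (SE 0.693, adjusted p 0.0390 in the same edgeR test). Both passed the filter only through the 2 libraries with intact Trp53, so these calls are given as values and the count of 2 supports nothing about the members. Hoxc11 (2.74, SE 0.536, adjusted p 0.0543) and Hoxd10 (-4.01, SE 0.893, adjusted p 0.0681) did not pass the edgeR test. DESeq2's Wald test called both, Hoxc11 upward and Hoxd10 downward, and limma-voom called neither. Without the filter the edgeR test called 5 members downward, Hoxa13, Hoxd10 and Hoxd12 besides Hoxd11 and Hoxd13, and Hoxc11 upward. At an unadjusted p under 0.05 it gave 6 of the 31 members, beside 31.0% of all genes. With Zfp871 loss 0 members rose and 0 fell (0.0% of all genes each way), and Hoxd13, Hoxd11 and Hoxa9 had an unadjusted p under 0.05, which 3.83% of all genes had. Zfp871 itself was not called for its own loss (log2 -1.23, adjusted p 0.874 in that edgeR test). The 0 calls therefore say nothing about the members. DESeq2 and limma-voom also gave 0 members for Zfp871 loss. Both Trp53-null genotypes came from the cross of double heterozygotes, the WT library may come from either cross, and the part of cross or litter was not tested.

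Genes that work with or upstream of Hox proteins were listed separately. Of 9 cofactors of the PBX, MEIS and PKNOX families, which bind DNA together with Hox proteins, 9 passed the filter. With Trp53 loss 0 of them rose, where 5.01% of all genes did, and 0 fell, where 4.31% did. With 9 genes, 0 is near those shares. Their median log2 ratio to WT was -0.08 in double null, -0.11 in Trp53-/- and -0.03 in Zfp871-/- cells. At least 2-fold below WT were 1 in double null (9.23% of all genes), 1 in Trp53-/- (8.88%) and 0 in Zfp871-/- (3.98%). With Zfp871 loss 0 genes of any list named here rose or fell in the edgeR test, nor did any other gene tested, Zfp871 itself included. For that loss the test thus says nothing about the lists. Pknox2 had 134, 68 and 235 counts in double null, Trp53-/- and Zfp871-/- cells, against 241 in WT cells. Of 14 activators and signals upstream of the clusters 7 passed, with medians of 0.05, 0.04 and 0.50 in double null, Trp53-/- and Zfp871-/- cells. Of these, 1 fell with Trp53 loss, where 4.31% of all genes did: Rarg, a retinoic acid receptor. Rarg had 1465, 1456 and 2018 counts in double null, Trp53-/- and Zfp871-/- cells, against 3219 in WT cells (edgeR quasi-likelihood test, Benjamini-Hochberg adjusted p 0.0417). Of 28 Trithorax and Polycomb genes, which keep Hox genes on or off, 2 rose with Trp53 loss, where 5.01% of all genes did. None fell, where 4.31% did. Their medians over WT were 0.26, 0.16 and 0.08 in the same libraries. Ezh2, the Polycomb methyltransferase, had 1619, 1282 and 698 counts in double null, Trp53-/- and Zfp871-/- cells, against 452 in WT cells (adjusted p 0.0300 in that edgeR test), and Suz12, its partner, had 2197, 1949 and 1211, against 1070 in WT cells (edgeR adjusted p 0.0434).

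Some regulators of limb and body position fell as well. Of 35 listed, 28 passed, with median log2 ratios to WT of -0.54 in double null, -0.42 in Trp53-/- and 0.04 in Zfp871-/- cells. With Trp53 loss 0 rose, where 5.01% of all genes did, and 5 fell, where 4.31% did: Tbx4, the hindlimb T-box gene, Tbx2, Hand2, which sets the posterior side of the limb bud, Lmx1b, which sets its dorsal side, and Barx1. Tbx4 had 5, 8 and 40 counts in double null, Trp53-/- and Zfp871-/- cells, against 193 in WT cells (edgeR quasi-likelihood test, Benjamini-Hochberg adjusted p 0.0275). Tbx2 had 22, 19 and 168 counts in them, against 125 in WT cells (adjusted p 0.0222 in that edgeR test), so here WT and Zfp871-/- were both high. Hand2 had 53, 46 and 121, against 163 in WT cells, Lmx1b had 38, 15 and 155, against 156 in WT cells, and Barx1 had 21, 21 and 111, against 189 in WT cells. Tbx4, Tbx2 and Barx1 were below 1 CPM in both Trp53-null libraries. They passed the filter only through Zfp871-/- and WT, where they were high, so the count of 5 supports nothing about the list. Bmp4, a growth factor of the limb bud, had 75, 90 and 198 counts in double null, Trp53-/- and Zfp871-/- cells, against 2303 in WT cells, but did not pass the edgeR test (adjusted p 0.0855). Of 12 limb genes placed under Hox control in the mouse limb 8 passed, with medians of -0.71 in double null, -0.47 in Trp53-/- and -0.01 in Zfp871-/- cells, and Hand2 and Lmx1b were again the genes that fell. Epha7, an ephrin receptor of this list, had 248, 168 and 285 counts in double null, Trp53-/- and Zfp871-/- cells, against 559 in WT cells.

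**Figure D5:**
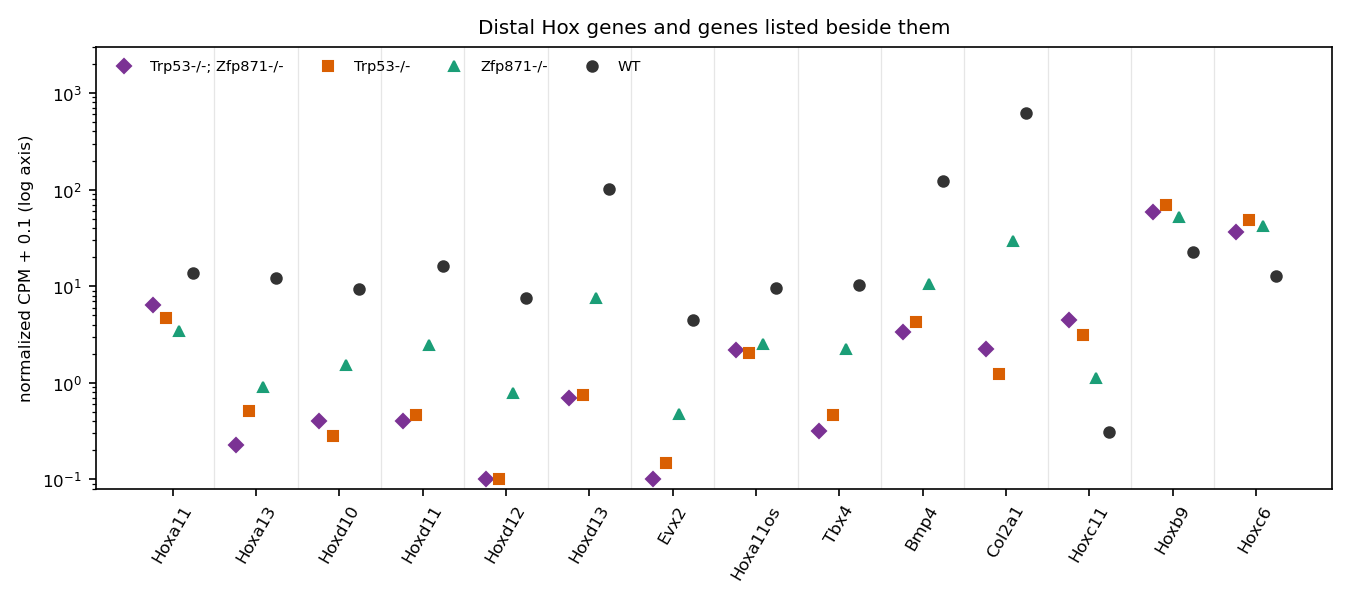
Normalized CPM + 0.1 (log axis) in each library for the distal Hox members, genes beside or listed with them, and Hoxc11, Hoxb9 and Hoxc6. WT is highest for every gene from Hoxa11 to Col2a1 and lowest for Hoxc11, Hoxb9 and Hoxc6. The genes were picked for display, so this is no result about their lists. Tbx2, of the same list as Tbx4 and not shown, was higher in Zfp871-/- than in WT.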

How the data were processed

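RNA sequencing counts of 4 libraries, 1 per genotype, were used. The authors deposited raw counts per Ensembl gene, and the submitters' processing notes name fastp, STAR, featureCounts and mm10. Tool versions, strand use and annotation release were not given in the sources used here. Hence overlapping and antisense genes are uncertain: 16 of the 39 members share exon bases with another gene. A second table that the authors deposited per library has no unit in its header. It was read as FPKM because, in members with over 20 counts in both libraries (24, 24 and 27), its values matched within 1% the deposited count divided by a length per gene and 1 factor per library, which was 1.2249 in double null, 1.1568 in Trp53-/- and 0.992 in Zfp871-/- relative to WT. These factors match ratios of DESeq2 size factors computed here, not of total counts (1.1565, 1.0881 and 1.0348). FPKM served for levels between genes. Symbols and coordinates came from GENCODE M21, which held 54495 of the 54532 IDs, with 37 unmatched.

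Counts were scaled by TMM (edgeR 4.0.16, R 4.3.3), with factors of 1.041 in double null, 1.0406 in Trp53-/-, 0.9438 in Zfp871-/- and 0.978 in WT. Genes with at least 1 CPM in at least 2 libraries were tested (13306). Pairs were compared as log2 ratios of normalized CPM (prior count 2), called at 2-fold, with exact Clopper-Pearson 95% intervals of both counts. PCR reads that carry no molecular identifier may repeat a molecule, so intervals and the 3-count floor cover counting error only. The test was edgeR's quasi-likelihood fit of Trp53 + Zfp871 with Benjamini-Hochberg adjustment at 0.05 and a common dispersion of 0.0302. That test gives no standard error, so SE is the absolute log2 change divided by the square root of its F statistic. "Rose" and "fell" are used only of genes past it. DESeq2 1.42.0, limma-voom (limma 3.58.1), other scalings, filters, fold thresholds and prior counts were alternatives.

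Members named with counts were the highest of each cluster, the 3 with the largest ratio per cluster among those with at least 50 counts, members called by the test and members at 0 in a library. Hoxd10, Hoxd9, Hoxd8, Hoxa4, Hoxc12 and Hoxc13 were added after their values were seen. From other lists, genes called and up to 3 with the largest ratio were named, except the macrophage genes, which are given as a count. Members and lists were chosen with earlier results of these data known. Sequences are RefSeq's (GRCm38.p6).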

Additional observations from a re-analysis of the deposited data

Results flagged for a closer look

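Several members differed in opposite directions in the 2 pairs that measure the same loss and share no library, with counting intervals that exclude an equal level in both. The difference between backgrounds was not tested for any of them, since each combination of genotypes has 1 library. For Zfp871 loss there were 8 such members of the 31 that passed the filter (25.8%), where 9.52% of all 13306 genes tested met the same rule. Hoxa11 had a log2 ratio of 0.46 in double null over Trp53-/- and of -1.98 in Zfp871-/- over WT. The other 7 were lower in double null than in Trp53-/- and higher in Zfp871-/- than in WT: Hoxb4 (-0.29 and 1.22), Hoxb8 (-0.23 and 1.17), Hoxb9 (-0.27 and 1.18), Hoxc6 (-0.41 and 1.72), Hoxc8 (-0.26 and 1.22), Hoxc9 (-0.88 and 1.30) and Hoxc10 (-0.50 and 1.16), each given as double null over Trp53-/- and then Zfp871-/- over WT.

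For Trp53 loss there were 7 of the 31 (22.6%), where 5.88% of all genes tested met the rule. They are given as double null over Zfp871-/- and then Trp53-/- over WT. Hoxa2 (0.78 and -0.92), Hoxa10 (0.59 and -0.42) and Hoxa11 (0.90 and -1.54) were higher in double null than in Zfp871-/- and lower in Trp53-/- than in WT. Hoxa7 (-0.35 and 0.66), Hoxc5 (-0.61 and 1.28), Hoxc6 (-0.21 and 1.92) and Hoxc8 (-0.25 and 1.22) went the other way. With total counts in place of TMM 4 of these 7 remained (Hoxa2, Hoxa10, Hoxa11 and Hoxc5), and all 8 remained for Zfp871 loss. The WT library enters one pair of each comparison.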

How the results depend on the processing

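No paired analysis was possible because each genotype has 1 library and no replicate number. Of the values that answer a comparison, 132 stayed within the range called unchanged under the alternatives and 26 moved, none in direction; medians over the members did not move. In Trp53-/-; Zfp871-/- over Trp53-/-, 1 member was higher and 1 lower without a filter, 1 lower with the filter of 50 counts and 3 lower at 1.5-fold, against 0 and 0. In Trp53-/-; Zfp871-/- over Zfp871-/-, 2 were higher with total counts, 3 without a filter and 6 at 1.5-fold, against 1, and 5 were lower without a filter or with the filter of 50 counts, against 3. At 3-fold, 8 were higher in double null, 11 in Trp53-/- and 6 in Zfp871-/- over WT, and 0 in Trp53-/- over Zfp871-/-. Without the 16 members that share exon bases, 10, 11 and 10 were higher over WT in double null, Trp53-/- and Zfp871-/- and 1 was lower in each; 1 was lower in double null over Zfp871-/-, and 2 were higher and 1 lower in Trp53-/- over Zfp871-/-. Fewer members were tested there. In the additive test for Trp53 loss 1 member rose (against 0) with total counts, without a filter and in DESeq2's Wald test, and 5 fell (against 2) without a filter: Hoxa13, Hoxd10, Hoxd11, Hoxd12 and Hoxd13. Scaling by total counts moved the median of all genes by 0.14 in double null over Zfp871-/- and by 0.15 in Trp53-/- over Zfp871-/-, and the cause was not tested. As alternatives chosen after seeing the data, DESeq2 size factors, total counts and no filter were applied to the libraries that stood apart. In that order, WT stood at least 2-fold below the other libraries in 15, 16 and 15 members and above them in 4, 3 and 6. The counts under these alternatives are given without a share over all genes, so they describe only how far the main counts moved.

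The Hoxd median rests on 5 members. Without a filter it was 0.0 over WT in each mutant library, where Hoxd1, Hoxd3, Hoxd4 and Hoxd12 join, and without members that share exon bases it was 0.60 in double null, 0.39 in Trp53-/- and 0.23 in Zfp871-/- over WT, where Hoxd10 and Hoxd11 drop out. Genes with few counts are limited by depth: the interval of Hoxc11 over WT spans 2.96 to 6.26 in double null.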

Other observations

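Transcripts inside the clusters that were not members varied too. Of 59 genes in and around the clusters, noncoding or the homeobox genes Evx1 and Evx2, 23 had 0 counts in every library and 7 passed the filter. Of these, 0 rose or fell in the edgeR test, where 5.01% and 4.31% of all genes did with Trp53 loss. Evx2, which lies next to Hoxd13 (chromosome 2, 74652991 to 74659557), had 0, 1 and 7 counts in double null, Trp53-/- and Zfp871-/- cells, against 82 in WT cells. Hoxa11os had 48, 42 and 46 counts in them, against 179 in WT cells. Gm53, upstream of Hoxb9, had 724, 754 and 509 counts in double null, Trp53-/- and Zfp871-/- cells, against 256 in WT cells. Hotair, the antisense RNA between Hoxc11 and Hoxc12, named for its known role, had 14, 1 and 0 counts, against 1 in WT cells.

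The hairpin gene of miR-196a in the Hoxb cluster, Mir196a-1, had 88, 82 and 42 counts in double null, Trp53-/- and Zfp871-/- cells, against 30 in WT cells. It is named, after its values were seen, because this microRNA is known to cut Hoxb8 RNA. These are reads of the locus and not a measure of the mature microRNA, which RefSeq gives at chr11:96265187-96265208 (GRCm38.p6, plus strand) with the seed, bases 2 to 8, in capitals here.
miR-196a-5p: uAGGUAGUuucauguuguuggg

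Protein-coding genes outside the clusters had medians near 0. Of 51 within 500 kb of a cluster 33 passed the filter, with a median log2 ratio of 0.01 in Trp53-/- over WT and 0.01 in Zfp871-/- over WT. At 2-fold, 4 were higher and 1 lower in Trp53-/- than in WT, where 8.9% and 8.88% of all genes tested were, and 0 higher and 1 lower in Zfp871-/- than in WT, where 3.52% and 3.98% were. With Trp53 loss 2 of the 33 rose in the edgeR test with Benjamini-Hochberg adjustment, where 5.01% of all genes did: Nckap1l and Gpr84, both genes of leukocytes. Another 2 fell, where 4.31% of all genes did: Copz2 and Zfp385a.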
